A study of Homo sapiens with 6 samples.

Results

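The melanosomal genes TYR, TYRP1, DCT, PMEL and MLANA and the transcription factors MITF and OTX2 were examined in 4 atypical teratoid rhabdoid tumor (AT/RT) cell lines. These 7 genes are used as markers of the AT/RT-TYR subgroup, a class of these tumors named for tyrosinase. They were taken by gene symbol from the transcript tables, with the TPM (a level scaled for transcript length and library depth) of all transcripts of 1 Ensembl gene identifier added up. All 7 symbols were found, each under 1 identifier, among 36532 gene identifiers, and 63 transcripts are annotated to them. Of the members, 5 had a read in at least 1 library, among 22532 genes above 0 TPM in a library.

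AT/RT is a malignant brain tumor of young children that is defined by loss of SMARCB1, a subunit of the SWI/SNF chromatin remodeling complex. The lines, named CHLA 02, 04, 05 and 06, were each derived from such a tumor, come from a cell bank (ATCC), and were grown, with no treatment named, in DMEM:F12 medium with EGF, basic FGF and B-27 supplement. Total RNA was sequenced in 6 stranded libraries, with CHLA 02 and CHLA 05 as single libraries and CHLA 04 and CHLA 06 in duplicate (2 technical replicates). Cells with restored SMARCB1, normal brain and pigment cells were not among the samples, so all 4 groups share the tumor type. The paper also describes all 4 lines as without SMARCB1 expression. The study's paper places CHLA 06 in a different molecular subgroup of AT/RT from the other lines. It classes CHLA 02, CHLA 04 and CHLA 05 with tumors now called ATRT-SHH (sonic hedgehog). The tumors of the group of CHLA 06 are of the ATRT-MYC or the ATRT-TYR type, and the paper does not say which applies to CHLA 06.

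Melanin is made in melanosomes, lysosome-related organelles of melanocytes and of the pigmented epithelium of the eye. Tyrosinase, encoded by TYR, starts the synthesis, TYRP1 and DCT act on later intermediates, PMEL builds the fibrils on which pigment is laid down, and MLANA is a membrane protein of the early organelle. MITF binds E-boxes in the promoters of these genes and drives the pigment program, while OTX2 is a homeodomain factor of forebrain, midbrain and retinal pigment epithelium that acts together with MITF on pigment genes in the eye.

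Each line was 1 biological sample, so the lines were not compared by a test, and the SD given for CHLA 04 and CHLA 06 is the spread of 2 technical replicates only. Reads recovered from the TPM values came to 10265899 to 20520229 per library on transcripts, with CHLA 04 replicate 1 the shallowest. A single read on 1000 bases of transcript thus added 0.117 to 0.236 TPM. Intervals in parentheses are 95% Wilson intervals from the recovered reads and cover counting error only. Those of TPM levels treat every read of a gene as adding the same TPM. They are too narrow where a few reads on short transcripts carry much of the level. In MITF of CHLA 04 replicate 1, for example, 5 of 34 reads on 1 transcript carried 40.8% of the TPM. SMARCB1 itself, which the paper describes as not expressed in these lines, was listed at 13.5 to 26.2 TPM over its transcripts in the 6 libraries. Which parts of the gene these reads cover was not tested. In these bulk libraries, a gene low in all cells and a gene high in few cells cannot be told apart.

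The CHLA 02 library stood apart in a way that bears on the comparisons of lines. Of 138 genes at 10 TPM or more in both CHLA 06 libraries and under 0.5 TPM in CHLA 04 and CHLA 05, 137 were at 0.5 TPM or more in CHLA 02, at a median of 0.547 of the CHLA 06 level (quartiles 0.380 and 0.732). All 18 genes chosen in the same way for CHLA 04 were also present in CHLA 02, at a median of 0.460 of the CHLA 04 level. In contrast, 35 genes chosen for CHLA 05 had a median of 0.00110 of the CHLA 05 level there. XIST, TSIX and the genes of chromosome Y were left out of these choices. Among the other genes, none was at 10 TPM or more in CHLA 02 and under 0.5 TPM in all other lines. There were 0 such genes for CHLA 04, 1 for CHLA 06 and 31 for CHLA 05. Across 22532 genes, CHLA 02 had Pearson's r of 0.916 to 0.954 with single libraries of other lines on the log2(TPM + 1) scale. A weighted mean of 65% CHLA 06 and 35% CHLA 04 raised this to 0.990, inside the range of 0.985 to 0.993 of the technical replicate pairs. This weight was picked, in steps of 5%, as the one with the highest r with CHLA 02 itself. The weighted mean also averages the replicates of each line, whereas the range is between single libraries, so the values are not like for like. These correlations are across genes, which are not independent replicates. Whether RNA or cells of the other lines entered the CHLA 02 library was not tested, and results are therefore given with and without it.

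**Figure D1:**
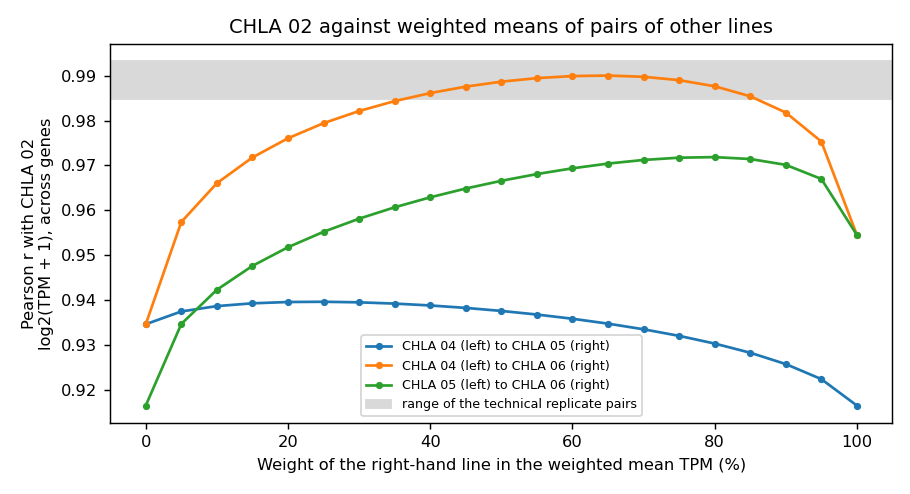
Pearson's r across 22532 genes between CHLA 02 and weighted means of pairs of other lines, on the log2(TPM + 1) scale, against the weight in percent of the line on the right, with the range of the technical replicate pairs as a gray band. The pair of CHLA 04 and CHLA 06 reached 0.990 at a weight of 65%, while CHLA 05 with CHLA 06 reached 0.972 and CHLA 04 with CHLA 05 reached 0.940.

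Over all libraries the 7 genes drew 3454 reads, and TYRP1 alone took 91.8% of them. TYRP1 was at 71.5 TPM (67.8 to 75.4) and 63.0 TPM (59.7 to 66.5) in the replicates of CHLA 06, at 30.8 TPM (28.2 to 33.6) in CHLA 02, at 0 and 0.0508 TPM in the replicates of CHLA 04, and at 0 TPM in CHLA 05. OTX2 was low but had the same distribution, with reads in CHLA 02 and CHLA 06 and none in CHLA 04 and CHLA 05. TYR and MLANA had no read in any library. MITF was present in all 4 lines, including CHLA 04 and CHLA 05, where TYRP1 had 1 read and none. Only TYRP1 was therefore an abundant transcript among the melanosomal markers of these lines.

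**Figure D2:**
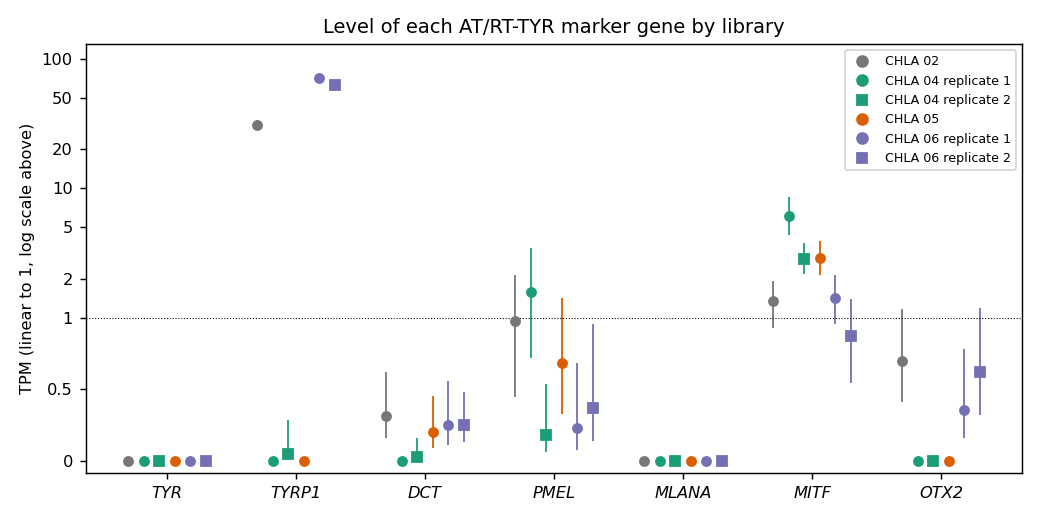
TPM of each of the 7 genes by library, on an axis that is linear up to 1 TPM and logarithmic above, with 95% Wilson intervals of counting error where a gene had reads. TYRP1 reached 71.5 TPM in CHLA 06 and 30.8 TPM in CHLA 02, MITF lay between 0.874 and 6.13 TPM in all libraries, and TYR and MLANA lay at 0 throughout.

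With a mean of at least 1 TPM taken as detected, the detected genes were TYRP1 and MITF in CHLA 02 and in CHLA 06, and MITF alone in CHLA 04 and in CHLA 05. The 2 of 7 genes of CHLA 02 stand against 64.3% of all genes with a read, and the 2 of 7 genes of CHLA 06 against 60.5%. The 1 of 7 genes of CHLA 04 stands against 62.7%, and that of CHLA 05 against 63.6%. Single libraries decided some of these calls, since CHLA 06 had 1 detected gene without its replicate 1, as MITF fell below 1 TPM, and CHLA 04 had 2 without its replicate 2, as PMEL passed. These shares are not like for like, since the background leaves out genes with no read and the 7 genes include TYR and MLANA. Of the 5 members with a read, 2 were detected in CHLA 02 and CHLA 06 and 1 in CHLA 04 and CHLA 05. That share was also below the background in each line, but it rests on few genes. A gene was called higher in a line when its lowest library there, in TPM + 1, was at least 2 times its highest library in the other lines. Only TYRP1 met this rule, and only in CHLA 06, where 0.954% of all genes met it. No member met it in CHLA 02, where 0.0888% of genes did, in CHLA 04 (1.24%) or in CHLA 05 (3.78%). The call of TYRP1 was close to the limit at 2.01, because CHLA 02 was the next highest library, and it was lost at a fold of 4 or with a pseudocount of 2. Without CHLA 02, the value was 60.9, TYRP1 was still the 1 member called in CHLA 06, and 5.25% of all genes were called there.

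The promoters of the pigment enzymes are printed first, since MITF and OTX2 act at such sequences and since TYRP1 had many reads and TYR none. Promoter windows from RefSeq (build GRCh38.p14), which run from 250 bases before to 50 bases after a transcript start, were found for 6 of the 7 genes, 10 windows in all. PMEL had no entry. Capitals mark the motifs searched on both strands, CATGTG (the M-box type of E-box bound by MITF, read CACATG on the other strand) and TAATCC (the core bound by OTX-type homeodomains, read GGATTA on the other strand). Each sequence is written 5′ to 3′ on the strand of the gene.
TYRP1 (plus strand, chr9:12693135-12693434): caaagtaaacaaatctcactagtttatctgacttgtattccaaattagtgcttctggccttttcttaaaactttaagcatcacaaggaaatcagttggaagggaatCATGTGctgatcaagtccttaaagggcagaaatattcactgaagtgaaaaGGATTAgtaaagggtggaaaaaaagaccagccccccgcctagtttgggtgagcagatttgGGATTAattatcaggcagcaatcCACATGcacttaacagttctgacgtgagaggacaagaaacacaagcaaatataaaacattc
TYR (plus strand, chr11:89177625-89177924): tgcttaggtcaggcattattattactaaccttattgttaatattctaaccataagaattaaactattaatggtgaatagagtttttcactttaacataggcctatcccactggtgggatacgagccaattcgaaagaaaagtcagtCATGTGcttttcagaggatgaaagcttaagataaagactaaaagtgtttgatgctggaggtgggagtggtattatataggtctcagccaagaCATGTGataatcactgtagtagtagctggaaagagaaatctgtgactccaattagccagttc
DCT (minus strand, chr13:94479633-94479932): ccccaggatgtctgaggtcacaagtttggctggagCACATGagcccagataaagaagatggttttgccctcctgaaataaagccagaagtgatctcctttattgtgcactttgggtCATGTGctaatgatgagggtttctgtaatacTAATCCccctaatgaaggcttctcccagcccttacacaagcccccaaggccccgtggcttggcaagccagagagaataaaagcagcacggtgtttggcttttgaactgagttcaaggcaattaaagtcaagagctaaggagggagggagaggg

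All 3 windows printed held 2 copies of CATGTG, while a further DCT window, at an upstream RefSeq start, held none of the motifs. In TYRP1 they began at -144 and -11 relative to the RefSeq start, in TYR at -104 and -12, and in DCT at -215 and -134. TYRP1 also held 2 copies of TAATCC, at -94 and -34, and DCT held 1 at -103, while TYR held none. Of all 35116 RefSeq promoter windows, 11.1% had CATGTG and 6.36% had TAATCC. The palindromic E-box CACGTG, also searched, was in 7.26% of all windows and in none of the 10 windows of the marker genes. The 3 windows of MITF and the window of MLANA held none of the motifs, and 1 of 2 windows of OTX2 held CATGTG, at -239. No matches overlapped one another. TYR, with no reads, and TYRP1, with the most, thus held equal numbers of CATGTG. A match describes the letters in these windows and was not tested for binding.

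**Figure D3:**
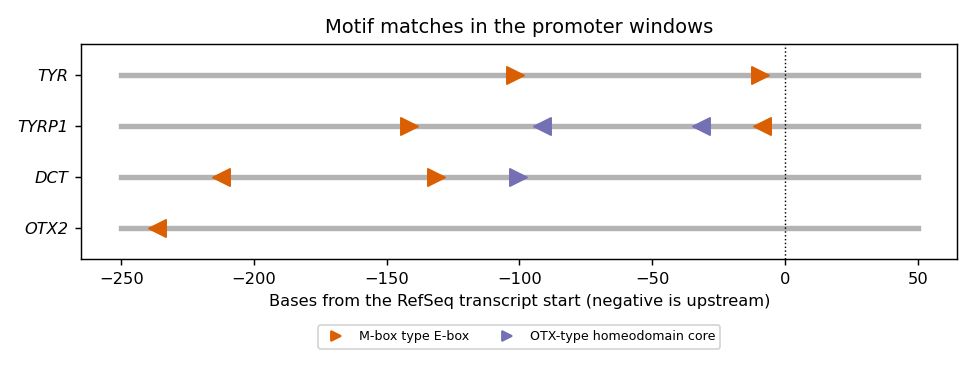
Positions of motif matches in the 300-base promoter windows of TYR, TYRP1 and DCT and the distal window of OTX2, in bases from the RefSeq transcript start, with arrowheads pointing right for the strand of the gene and left for the other strand. TYR, TYRP1 and DCT each had 2 M-box type E-boxes, and OTX-type homeodomain cores were in TYRP1 (2) and DCT (1).

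TYRP1 (ENSG00000107165, chr9:12685439-12710290, plus strand) encodes an enzyme of the melanosome that stabilizes tyrosinase and acts late in eumelanin synthesis. Its reads numbered 1345 and 1332 in the replicates of CHLA 06, 494 in CHLA 02, 1 in CHLA 04 replicate 2 and 0 in CHLA 04 replicate 1 and in CHLA 05. The CHLA 06 and CHLA 02 libraries were thus far apart from those of CHLA 04 and CHLA 05, with no overlap. The share of all genes that separate the lines in this way was not counted. In CHLA 06, TYRP1 averaged 67.2 ± 6.04 TPM (SD of 2 technical replicates) and exceeded 85.2% and 83.4% of the genes with reads in the respective replicates, while in CHLA 02 it exceeded 66.4%. The counting intervals of the CHLA 06 replicates did not overlap, so these replicates differed by more than read sampling. Even so, both lay above CHLA 02, and TYRP1 in CHLA 06 had 2.25 times the reads per depth of CHLA 02 (exact 95% interval 2.05 to 2.49).

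CHLA 05 had no TYRP1 read. With 3 reads taken as its floor, the level in reads per depth was 372-fold higher in CHLA 06 and 165-fold higher in CHLA 02. The counting error of the reads in CHLA 06 and CHLA 02 is left out of these values. Against the single read of CHLA 04 the ratio was 1883 for CHLA 06 (338 to 74383) and 835 for CHLA 02 (149 to 33060). The ratio of CHLA 02 to the mean of CHLA 06 was 0.458 in TPM. Among the 138 genes present in CHLA 06 and absent from CHLA 04 and CHLA 05 that are described above, TYRP1 being 1 of them, 37.7% had a lower ratio. TYRP1 in CHLA 02 was thus not set apart from the other genes of this kind. The weighted mean of CHLA 06 and CHLA 04 would place TYRP1 at 43.7 TPM.

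All 7 annotated TYRP1 transcripts had reads, but 1 of them, ENST00000388918, took 94.6% (3000 reads). This transcript has 8 exons and 2851 bases, is the longest of the 7, and begins at position 12693435, which is 50 bases past the RefSeq start used for the promoter above. It drew 1266 and 1267 reads in the CHLA 06 replicates and 466 in CHLA 02. ENST00000473763, a short transcript of 2 exons with an upstream start at 12685439, drew 20 and 19 reads in CHLA 06 and 12 in CHLA 02. The full-length form was therefore the main TYRP1 RNA in both lines. LURAP1L-AS1, an antisense gene on the minus strand that overlaps TYRP1, had 3 reads in each CHLA 06 replicate and none elsewhere. Strand-specific counting is not stated in the sources used here, so reads from either strand of the overlap cannot be told apart.

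TYR (ENSG00000077498, chr11:89177452-89295759, plus strand) encodes tyrosinase, the rate-limiting enzyme of melanin synthesis and the namesake of the subgroup. None of its 3 transcripts had a read in any of the 6 libraries. A count of 0 allows up to 3 reads, which on its longest transcript of 2485 bases is 0.141 TPM in the deepest library, CHLA 06 replicate 2, and 0.285 TPM in the shallowest, CHLA 04 replicate 1. TYR was therefore not detectable at this depth in the lines with TYRP1 as in those without it.

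DCT (ENSG00000080166, chr13:94436808-94479682, minus strand) encodes dopachrome tautomerase, which acts between tyrosinase and TYRP1 in eumelanin synthesis. It had 8 reads in CHLA 02, 0 and 1 in the CHLA 04 replicates, 6 in CHLA 05, and 6 and 9 in the CHLA 06 replicates. These correspond to 0.316 TPM (0.160 to 0.624) in CHLA 02, 0.208 TPM (0.0952 to 0.453) in CHLA 05, and 0.255 and 0.254 TPM in CHLA 06. CHLA 02, CHLA 05 and CHLA 06 had overlapping intervals and could not be ordered. In CHLA 02 the reads per depth were 13.5 times those of CHLA 04, where the only read leaves an interval of 1.81 to 600.3. Unlike TYRP1, DCT was thus present at a trace level in CHLA 05 as well. The full-length transcript ENST00000377028 took 18 of its 30 reads.

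PMEL (ENSG00000185664, chr12:55954105-55973317, minus strand) encodes the fibril protein of the early melanosome. Between 3 and 7 reads fell on it in each library, 29 in all. Its level was 0.978 TPM (0.448 to 2.13) in CHLA 02, 1.57 and 0.183 TPM in the CHLA 04 replicates, 0.685 TPM (0.332 to 1.41) in CHLA 05, and 0.234 and 0.370 TPM in CHLA 06. The interval of CHLA 04 replicate 1 (0.720 to 3.43) lay above those of its own replicate 2 (0.0621 to 0.537) and of CHLA 06 replicate 1 (0.0795 to 0.687). All other intervals overlapped. The replicates of CHLA 04 were as far apart as any lines, at 0.877 ± 0.981 TPM (SD, n = 2 technical replicates). The reads were spread over 14 of 19 annotated transcripts, none with over 6 reads. PMEL overlaps CDK2, a cell cycle kinase gene on the other strand at 30.0 to 95.6 TPM, and shares the span with the minus-strand gene RP11-973D8.4, which had no reads. At these counts no difference of PMEL between lines was detectable.

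MLANA (ENSG00000120215, chr9:5890802-5910606, plus strand) encodes the melanocyte antigen also called MART-1. Its 5 transcripts had no read in any library, with a floor of 0.145 to 0.294 TPM on its longest transcript. MLANA lies within KIAA2026, a gene on the minus strand that was at 27.8 to 40.5 TPM in all libraries, and none of those reads was assigned to MLANA. Elements of the LTR class (long terminal repeats of endogenous retroviruses), which were measured in separate files and scaled over LTR elements alone, did have reads inside the MLANA span. Of 7 such elements 4 had reads, 136 in all, and these 4 lie on the minus strand, which is that of KIAA2026, and outside the exons of MLANA. The LTR50 element at chr9:5894275-5894902 had 69 of the 136 reads. Reads in the MLANA span were therefore found on elements and not on the exons of MLANA.

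MITF (ENSG00000187098, chr3:69739435-69968337, plus strand) encodes the basic helix-loop-helix leucine zipper factor at the head of the melanocyte program, and its promoters give isoforms of different tissues. Its level was 6.13 TPM (4.38 to 8.56) and 2.85 TPM (2.17 to 3.75) in the CHLA 04 replicates, 2.88 TPM (2.12 to 3.91) in CHLA 05, 1.34 TPM (0.925 to 1.93) in CHLA 02, and 1.43 TPM (0.952 to 2.14) and 0.874 TPM (0.546 to 1.40) in the CHLA 06 replicates. The values of the CHLA 04 and CHLA 05 libraries lay above those of CHLA 02 and CHLA 06, the lines with abundant TYRP1. How many of all genes divide the lines in this way was not counted. The counting intervals of CHLA 05 and CHLA 06 replicate 1 overlapped. The mean levels ran from CHLA 04 (4.49 ± 2.32 TPM, SD of 2 technical replicates) over CHLA 05 and CHLA 02 to CHLA 06 (1.15 ± 0.392 TPM), and the last 2 lines changed places after quantile normalization.

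Neighbors in this order were close. In reads per depth, the ratio of CHLA 04 to CHLA 05 was 1.23 (0.838 to 1.83), that of CHLA 05 to CHLA 02 was 1.46 (0.881 to 2.45) and that of CHLA 02 to CHLA 06 was 1.68 (1.0 to 2.80). The ends of the order were farther apart than counting error, with a ratio of 3.02 (2.05 to 4.52) between CHLA 04 and CHLA 06, and CHLA 05 exceeded CHLA 06 by 2.46 times (1.55 to 3.90). These ratios do not rest on CHLA 02. The spread in TPM between the CHLA 04 replicates was narrower in RPM (reads scaled for library depth but not for length), at 3.31 and 2.94, since short transcripts with few reads carry a high TPM. ENST00000495741, of 473 bases, was such a transcript, with 5 reads in CHLA 04 replicate 1 and 1 in replicate 2.

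The 17 annotated MITF transcripts begin in 4 groups of starts, and 14 transcripts had reads. The 5′-most group (starts at 69739435 to 69739482) took 78 of 194 reads or 40.2%, the next (69758704 to 69763811) 51 reads or 26.3%, the third (69866212 to 69866259) 16 reads or 8.25%, and the 3′-most (69936587 to 69936829) 49 reads or 25.3%. The 3′-most group includes the start of MITF-M, the isoform typical of melanocytes. It had 5 of 28 reads in CHLA 02, 18 of 85 in CHLA 04, 14 of 41 in CHLA 05 and 12 of 40 in CHLA 06. As shares of reads these were 17.9% (7.88 to 35.6), 21.2% (13.8 to 31.0), 34.1% (21.6 to 49.5) and 30.0% (18.1 to 45.4). The intervals of this group overlapped between all lines. The second group differed more, with 13 of 28 reads in CHLA 02 or 46.4% (29.5 to 64.2), 15 of 41 in CHLA 05 or 36.6% (23.6 to 51.9), 11 of 40 in CHLA 06 or 27.5% (16.1 to 42.8) and 12 of 85 in CHLA 04 or 14.1% (8.26 to 23.1). In this group the intervals of CHLA 02 and CHLA 05 did not overlap that of CHLA 04. Most of the exons are common to the isoforms, so the shares depend on how the reads were divided among transcripts.

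**Figure D4:**
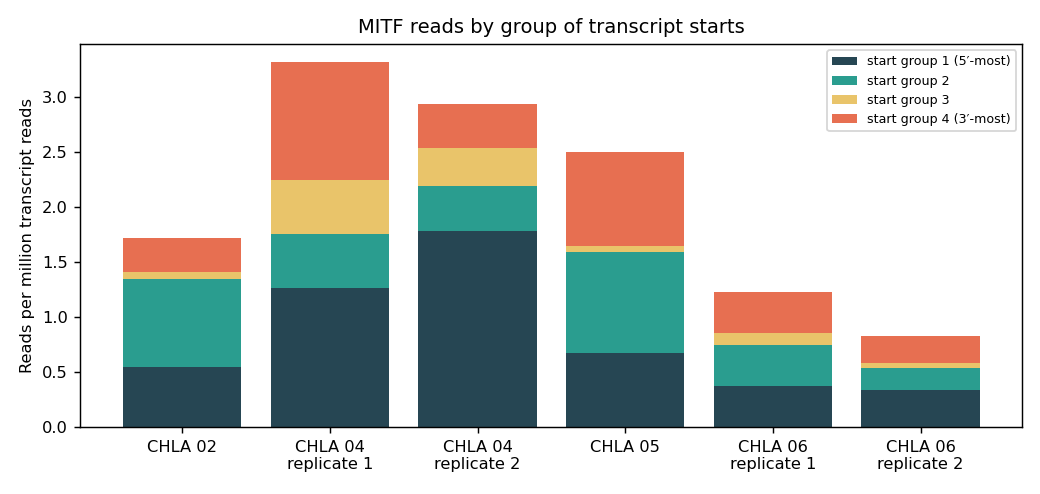
MITF reads in each library, in RPM, stacked by the 4 groups of transcript starts from 5′ to 3′. The totals ran from 0.828 in CHLA 06 replicate 2 to 3.31 in CHLA 04 replicate 1, and each group had at least 1 read in every library.

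OTX2 (ENSG00000165588, chr14:56799905-56810479, minus strand) encodes the homeodomain factor of anterior brain and eye. It had 14 reads in CHLA 02, 6 and 9 in the CHLA 06 replicates, and none in CHLA 04 and CHLA 05. OTX2 levels were 0.697 TPM (0.415 to 1.17) in CHLA 02 and 0.358 TPM (0.164 to 0.780) and 0.619 TPM (0.326 to 1.18) in CHLA 06. The lines with OTX2 reads were thus the lines with TYRP1, at a level under 1 TPM. Of the 138 genes high in CHLA 06 and low in CHLA 04 and CHLA 05 described above, 137 were also present in CHLA 02. Presence in both lines was thus common among genes abundant in CHLA 06 and not particular to TYRP1. OTX2 lay below the 10 TPM needed for this set, so the set does not cover genes at its level. The weighted mean of CHLA 06 and CHLA 04 would place OTX2 at 0.317 TPM, against the 0.697 TPM of CHLA 02. With 3 reads as the floor for CHLA 04, reads per depth were 7.89-fold higher in CHLA 02 and 3.52-fold higher in CHLA 06. With the same floor for CHLA 05, the values were 4.68-fold for CHLA 02 and 2.09-fold for CHLA 06. They leave out the counting error of the 14 OTX2 reads in CHLA 02 and 15 in CHLA 06, so they are not lower bounds. CHLA 02 was not below CHLA 06, as TYRP1 was, but had 2.24 times its reads per depth (1.0 to 4.99) and 1.43 times its mean TPM, a direction that turned after quantile normalization (0.792 times). The transcript ENST00000339475 took 25 of the 29 reads. OTX2-AS1, a neighboring antisense gene named after its values were seen, had 8 reads in CHLA 02, 5 and 6 in CHLA 06 and none in CHLA 04 and CHLA 05.

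The wider pigment machinery was described with gene lists, and the rule of a 2-fold difference was used as above. The counts of each list below stand beside the shares of all genes with a read. Of these, 60.5% to 64.3% were detected per line and 0.0888% to 3.78% met the rule per line. Without CHLA 02, 5.25% met it in CHLA 06. Of 18 genes of the sorting complexes BLOC, HPS and AP-3, which deliver cargo to melanosomes and other lysosome-related organelles, 17 were detected in CHLA 02 and all 18 in each of the other lines. None was higher in any line. Their median was 36.9 to 40.5 TPM in the 4 lines, against 5.12 to 6.95 TPM for all genes with a read. AP3D1 was at 113 to 194 TPM, HPS1 at 26.8 to 175 TPM and BLOC1S2 at 44.0 to 186 TPM. The general sorting machinery was therefore present whether or not TYRP1 was.

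Of 14 genes for cargo, channels and transport of melanosomes, CHLA 05 had 7 detected, CHLA 04 and CHLA 06 had 9 each and CHLA 02 had 10, and none met the rule in any line. Without CHLA 02, 2 of them met it in CHLA 06. MLPH, the linker between RAB27A and myosin Va, was at 105 and 101 TPM in the CHLA 06 libraries, at 63.5 TPM in CHLA 02, and at 0 to 0.170 TPM in CHLA 04 and CHLA 05. OCA2, an anion channel of the melanosome, was at 35.2 and 15.4 TPM in CHLA 06 and 9.59 TPM in CHLA 02, and at 0 to 0.0771 TPM in the other lines. Both were high in CHLA 06 and CHLA 02, the lines with abundant TYRP1. Nearly all genes high in CHLA 06 and low in CHLA 04 and CHLA 05 were also present in CHLA 02, so this was not particular to MLPH and OCA2. Other genes of the list did not follow TYRP1. GPNMB, a melanosomal glycoprotein named after its values were seen, was at 17.6 and 12.8 TPM in CHLA 04, 5.95 TPM in CHLA 02, 0.428 TPM in CHLA 05 and 0 and 0.273 TPM in CHLA 06. SLC45A2, a melanosomal transporter also named after its values were seen, was at 1.47 and 0.821 TPM in CHLA 04 and 0.498 TPM or less elsewhere. CD63, a tetraspanin of late endosomes and melanosomes, was at 261 to 560 TPM in all libraries, and MYO5A, the motor that holds melanosomes at the cell edge, at 24.5 to 70.7 TPM.

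**Figure D5:**
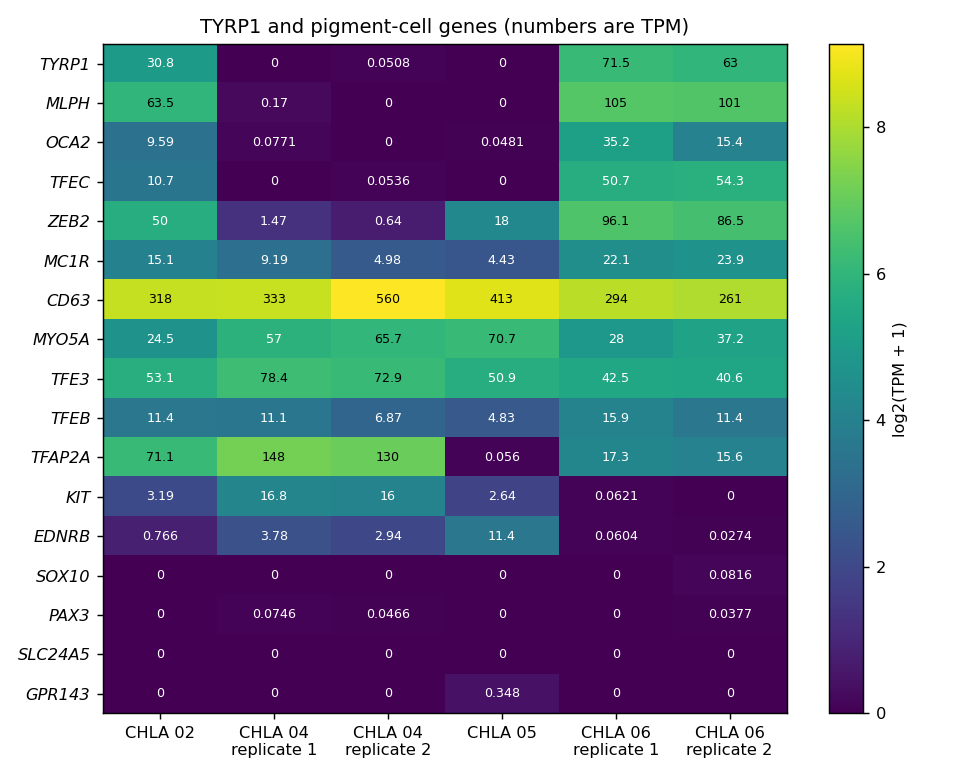
TPM of TYRP1 and 16 genes of the pigment lists by library, with the color on the log2(TPM + 1) scale and the TPM printed in each cell. TYRP1, MLPH, OCA2 and TFEC were high in CHLA 06 and CHLA 02 and at 0.170 TPM or less in CHLA 04 and CHLA 05, whereas SOX10, PAX3 and SLC24A5 were at 0.0816 TPM or less throughout.

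Of 9 regulators of MITF in pigment cells, CHLA 06 had 4 detected, CHLA 05 had 5, CHLA 02 had 6 and CHLA 04 had 7. These counts lay on both sides of the share of all genes. SOX10 and PAX3, which activate MITF in melanocytes, were at 0 to 0.0816 TPM and 0 to 0.0746 TPM. KIT, the receptor for stem cell factor, was higher in CHLA 04, at 16.8 and 16.0 TPM against 3.19 TPM or less elsewhere. EDNRB, the endothelin receptor of the neural crest, was higher in CHLA 05, at 11.4 TPM against 3.78 TPM or less elsewhere. TFAP2A was at 148 and 130 TPM in CHLA 04, 71.1 TPM in CHLA 02, 17.3 and 15.6 TPM in CHLA 06 and 0.0560 TPM in CHLA 05. ZEB2 had its highest levels in CHLA 06 (96.1 and 86.5 TPM), and CREB1 was at 63.7 to 95.2 TPM in all libraries. Without CHLA 02, ZEB2 and MC1R, the melanocortin receptor, met the rule in CHLA 06.

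Among the paralogs of MITF, TFEC met the rule in CHLA 06. It was at 50.7 and 54.3 TPM in CHLA 06, 10.7 TPM in CHLA 02, 0 and 0.0536 TPM in CHLA 04 and 0 TPM in CHLA 05. Its fold over the next library was 4.43, or 49.0 without CHLA 02. In CHLA 06, where MITF averaged 1.15 TPM, TFEC and the ubiquitous TFE3 (42.5 and 40.6 TPM) were thus the more abundant members of the family per length. TFEB was at 4.83 to 15.9 TPM in all libraries. Of the relatives of OTX2, OTX1 was at 2.04 to 6.31 TPM in all libraries, and CRX, the photoreceptor factor, had a level above 0 in CHLA 06 replicate 2 alone, at 0.0515 TPM.

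Markers of cells that carry melanin or OTX2 were read next to the members. Of 6 melanocyte markers, 2 or 3 were detected per line. OCA2 and MC1R were detected in CHLA 02 and CHLA 06, MC1R and EDNRB in CHLA 05, and SLC45A2 with these in CHLA 04. MC1R was at 22.1 and 23.9 TPM in CHLA 06, 15.1 TPM in CHLA 02 and 4.43 to 9.19 TPM elsewhere. Without CHLA 02, OCA2 and MC1R met the rule in CHLA 06. In contrast, SOX10 and PAX3 were near 0 in all lines. Of 6 markers of the retinal pigment epithelium, 3 or 4 were detected per line, but RPE65 had reads in CHLA 06 replicate 2 alone, at 0.0449 TPM. LRAT, the retinol acyltransferase of that tissue, reached 610 TPM in CHLA 05 but 3.32 TPM or less elsewhere, RLBP1 was also higher in CHLA 05, at 6.59 TPM, and RDH5 in CHLA 04, at 7.51 and 5.49 TPM. SERPINF1 was at 338 and 249 TPM in CHLA 06, 254 TPM in CHLA 02, 131 TPM in CHLA 05 and 4.77 TPM or less in CHLA 04, and BEST1 was at 13.4 and 3.43 TPM in CHLA 04 against 3.51 TPM or less elsewhere. None of 5 choroid plexus markers was detected in any line, with TTR and FOLR1 at 0 throughout, AQP1 at 0.650 TPM or less, CLIC6 at 0.361 TPM or less and KCNJ13 at 0.188 TPM or less. Of 5 photoreceptor markers only NRL reached 1 TPM, at up to 2.29 TPM in CHLA 04, while RCVRN stayed at 0.336 TPM or less. No complete marker set of a pigment cell type therefore accompanied TYRP1, and the share of such cells in the cultures was not tested.

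Of 7 eye field and optic cup factors, 2 or 3 were detected per line. PAX2, a factor of the optic stalk and of the midbrain-hindbrain boundary, was at 45.1 and 47.5 TPM in CHLA 06 and 27.8 TPM in CHLA 02, and at 0.233 TPM or less in CHLA 04 and CHLA 05. PAX6 was at 26.2 to 36.9 TPM in CHLA 04 and CHLA 05, 15.8 TPM in CHLA 02 and 0.937 TPM or less in CHLA 06. LHX2 was at 26.8 to 36.7 TPM in CHLA 04 and CHLA 05, 6.28 TPM in CHLA 02 and 2.62 TPM or less in CHLA 06. SIX3 was higher in CHLA 05, at 3.89 TPM. Of 7 boundary factors, the position in the brain where OTX2 ends, LMX1B was at 38.2 and 35.4 TPM in CHLA 06 and 8.33 to 24.4 TPM elsewhere, and EN1 at 2.58 and 2.05 TPM in CHLA 06, 0.548 TPM in CHLA 02 and 0 TPM in the other lines. GBX2, which opposes OTX2 at the boundary, was at 1.14 to 2.54 TPM in CHLA 04 and CHLA 05 and at 0.205 TPM or less in CHLA 02 and CHLA 06. OTX2 reads and GBX2 levels over 1 TPM thus fell in different lines, and how many gene pairs do so was not counted. None of these lists had a member higher in CHLA 02 by the rule. Without CHLA 02, PAX2, LMX1B and EN1 met it in CHLA 06.

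Of 6 identifiers of neural progenitor markers, 4 to 6 were detected per line. VIM, an intermediate filament gene, was at 4629 to 19464 TPM, and the main TUBB3 identifier at 205 to 455 TPM. FABP7, a lipid-binding protein of radial glia, was at 756 to 4102 TPM in CHLA 02, CHLA 04 and CHLA 05 and at 0.566 and 1.43 TPM in CHLA 06. SOX2 was higher in CHLA 05, at 4.03 TPM, and a second TUBB3 identifier was higher in CHLA 02, at 30.4 TPM. FABP7 and TYRP1, both abundant in CHLA 02, were not abundant together in any of the other lines. How many gene pairs behave in this way was not counted.

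Genes with the pattern most like that of the 2 members detected were found among 16017 genes at 1 TPM or more in a line, by the root mean square difference of centered log2(TPM + 1) over the 6 libraries. XIST, TSIX and the genes of chromosome Y were left out. Closest to TYRP1 was MMP3, a matrix metalloproteinase, with a difference of 0.12. It was at 86.8 and 79.5 TPM in CHLA 06, 32.2 TPM in CHLA 02, 0.117 and 0.216 TPM in CHLA 04 and 0 TPM in CHLA 05. ARHGAP29 (0.17) and ZNF385D (0.17) came next, both over 42 TPM in CHLA 02 and CHLA 06. Closest to MITF were P2RY11 (0.07), the pseudogene SSR4P1 (0.08) and RP11-309L24.4 (0.09). With 4 lines, such likeness describes these libraries alone.

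LTR elements lay within the spans of 4 of the 7 genes, by an overlap of at least 1 base. There were 26 in MITF, 17 in TYR, 9 in DCT and 7 in MLANA, and none in TYRP1, PMEL or OTX2. In MITF, 10 elements had 44 reads in all, and 2 of the 10, an MSTA element and the MSTA-int element that adjoins it, overlap an annotated exon. The element with the most reads was a THE1A-int at chr3:69909394-69910968, with 10. In DCT 3 elements had 4 reads in all, and in TYR 1 element had 1 read. No LTR element in the span of MITF, DCT or TYR had over 4 reads in a library. TYRP1, the abundant member, holds no annotated LTR element in its span.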

How the data were processed

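The authors trimmed the paired reads with Trimmomatic, mapped them to GRCh38 in the CLCbio Genomics Workbench, and deposited TPM per Ensembl transcript and, from a separate mapping, TPM per RepeatMasker LTR element. The 12 files hold 1 library each, and the submitters' notes also name CASAVA 1.8.2. Program versions other than this, and strand-specific counting, are not given in the sources used here.

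TPM was summed per gene identifier. TPM multiplied by transcript length fell on whole multiples of 1 step per library for at least 99.8% of values (within 0.1 of a read), and these multiples were taken as reads. The recovery and the fold rule were checked on simulated data. Levels are given with Wilson intervals, ratios of reads per depth with exact intervals from the split of reads, and 3 reads were the floor for a count of 0. A gene was detected at a mean of 1 TPM, and higher in a line by a fold of 2 on TPM + 1. Named genes were the 7 members, the 3 most abundant genes and up to 4 genes meeting the fold rule per list, the 3 genes most like each detected member, and genes overlapping a member. Some further list genes (SOX10, PAX3, MC1R, RPE65, TTR, FOLR1, SLC24A5, GPR143, GPNMB and SLC45A2) were named after their values were seen, as were the results without CHLA 02. The members and lists were chosen with earlier results of these data known. No test between lines was made, with 1 biological sample each. Python 3, numpy, pandas and scipy were used.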

Additional observations from a re-analysis of the deposited data

How the results depend on the processing

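No paired analysis was possible because no test between lines was made, and the replicate numbers shared by CHLA 04 and CHLA 06 name technical replicates. The count of detected genes (2, 1, 1 and 2 in CHLA 02, 04, 05 and 06) was 4, 2, 2 and 2 at 0.5 TPM, 1, 0, 0 and 1 at 5 TPM, and 3, 1, 1 and 2 with at least 10 reads in a library. With the most abundant transcript alone it was 1 in CHLA 02, 0 in CHLA 05 and 1 in CHLA 06. With the highest technical replicate it was 2 in CHLA 04, where PMEL passed. Without 1 technical replicate the count was 1 to 2 in CHLA 04 and 1 to 2 in CHLA 06, where MITF fell under 1 TPM without replicate 1. TYRP1 was no longer higher in CHLA 06 at a fold of 4 or with a pseudocount of 2 (0 genes each), both because of the CHLA 02 level, and the count stayed at 1 under the other alternatives. The TYRP1 ratio of CHLA 06 to CHLA 02 in mean TPM was 2.18 and was 2.05 to 2.32 with 1 replicate of CHLA 06. The OTX2 ratio of CHLA 02 to CHLA 06 changed from 1.43 to 0.792 after quantile normalization, so its direction depends on the scaling, and the cause was not tested. The MITF ratio of CHLA 04 to CHLA 06 was 3.90 in mean TPM, 9.01 for the most abundant transcript, and 2.47 to 5.32 without 1 replicate. The depth limits TYR, MLANA, DCT, PMEL and OTX2, each with at most 14 reads in a library, and no culture of a line was repeated.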
